A study of Homo sapiens with 6 samples.

Results

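The Schlafen family genes SLFN5, SLFN11, SLFN12 and SLFN13 were examined in fusion-positive rhabdomyosarcoma (FP-RMS) cells treated with the small molecule YK-4-279. They were taken by symbol, and all 4 were found among the 35268 named genes of the deposited matrix. The group was chosen by the fold change of SLFN5, which was among the largest rises in the same comparison of drug-treated with control cells. Changes of the 4 genes in that comparison are therefore given as a description with their errors and without a test.

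Messenger RNA was sequenced from Rh30, an established FP-RMS cell line, in 3 libraries treated with 1 µM YK-4-279 dissolved in DMSO for 24 hours and 3 libraries treated with DMSO, the vehicle, for the same time. YK-4-279 is a small molecule that interferes with protein interactions of ETS transcription factors. The study asked how the drug alters gene expression in FP-RMS cells, in which the fusion protein PAX3-FOXO1 drives disease and interacts with ETS1. All 6 libraries came from 1 cell line carrying its own PAX3-FOXO1 fusion, without a transgene or knockdown, and the labels do not say whether the replicates were separate cultures, so p-values measure the spread between these libraries, which may be technical. A log2 fold change, also called a log2 difference, is YK-4-279 against DMSO on log2(normalized count + 1). Values are normalized counts, that is, reads per gene divided by 1 factor per library. The libraries held between 16724650 and 24677433 reads on named genes. DMSO replicate 1 stood apart, its correlation with the other libraries across genes averaging 0.989 while theirs averaged at least 0.992. Mitochondrial genes took 6.05% of its reads and 4.74% to 5.03% of the reads of the other libraries. Counts for several gene lists are given with and without it, and in the fit without it 4.63% of all genes tested passed as higher and 8.45% as lower. For some single genes that rest partly on it, the values of the DMSO libraries are printed instead.

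Schlafen proteins share an N-terminal core that binds nucleic acid, and several of them cut transfer RNA. Many are induced by interferons, signalling proteins of antiviral defence that act through JAK kinases and STAT transcription factors. The long members, SLFN5, SLFN11, SLFN13 and SLFN14, also carry a helicase-like domain, which SLFN12 lacks. In tumour biology the best known is SLFN11, which blocks stressed replication forks and sensitises cells to DNA-damaging drugs, and whose transcription has been linked to the ETS factors ETS1 and FLI1.

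Of the 7 family genes in the annotation, 6 formed a cluster of 318 kb on chromosome 17 (chr17:35243071-35560819, hg38), with SLFN5 on the plus strand and the others on the minus strand. SLFN5 (ENSG00000166750.10) lay at chr17:35243071-35273655, SLFN11 (ENSG00000172716.17) at chr17:35350305-35373701, SLFN12 (ENSG00000172123.13) at chr17:35410922-35433283 and SLFN13 (ENSG00000154760.14) at chr17:35435096-35448837. Only 1813 bases separated SLFN12 from SLFN13, against 76650 bases between SLFN5 and SLFN11. None of the 4 overlapped another annotated gene, so their counts held no reads of an overlapping or antisense gene in this annotation. The nearest gene to SLFN5, a long non-coding RNA gene on the other strand, was 108 bases away.

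Because the drug acts on ETS factors, whose binding sites hold the core GGAA, the bases just upstream of the Schlafen genes are shown where they were found. RefSeq promoter windows (GRCh38.p14) were matched for 2 of the 4 genes, SLFN11 and SLFN12. Only bases upstream of every annotated transcript start are printed, 5′ to 3′ on the minus strand, and capitals mark the ETS core GGAA or its reverse complement.
SLFN11, chr17:35373702-35373871, minus strand: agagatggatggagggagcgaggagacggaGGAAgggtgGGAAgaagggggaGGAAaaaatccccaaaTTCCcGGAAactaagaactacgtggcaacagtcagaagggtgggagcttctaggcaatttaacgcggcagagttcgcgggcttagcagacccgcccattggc
SLFN12, chr17:35433284-35433424, minus strand: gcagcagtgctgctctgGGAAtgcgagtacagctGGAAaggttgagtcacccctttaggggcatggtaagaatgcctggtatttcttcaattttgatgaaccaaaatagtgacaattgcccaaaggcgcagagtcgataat
The SLFN11 window of 170 bases held 5 matches to GGAA, 4 as written and 1 as the reverse complement. Of 35116 RefSeq promoters, 84.1% held at least 1 match in a window of that length and 5.64% held at least as many as SLFN11, the median being 2. These windows were the first bases of each promoter record and were not trimmed at annotated transcript starts. The SLFN12 window of 141 bases held 2 matches, a number reached or exceeded by 47.7% of promoters in a window of that length, of which 78.6% held at least 1. The interferon-stimulated response element (a pair of GAAA runs with NN between them), read on both strands, had 0 matches in both windows and was held by 2.04% and 1.71% of all promoters at the lengths of the SLFN11 and SLFN12 windows. The gamma-activated sequence TTCNNNGAA, a STAT site also read on both strands, had 1 match upstream of SLFN11, which overlapped 2 of the GGAA matches, and 0 upstream of SLFN12. It was held by 4.80% and 4.04% of all promoters at these lengths. A match here is a run of letters and was not tested for binding.

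Levels of the Schlafen genes were compared as normalized counts per kb of exons, since the genes differ in length. In DMSO, SLFN12 had 116 ± 14.1 normalized counts per kb (SD, n = 3), SLFN11 84.5 ± 3.43, SLFN5 12.04 ± 0.612 and SLFN13 1.01 ± 0.224. SLFN11 and SLFN12 lay near the middle of the genes tested, at percentiles 45.9 and 54.1 of level per kb in DMSO, while SLFN5 lay at percentile 15.4. SLFN13 lay at percentile 0.463. The libraries of SLFN12 and SLFN11 did not overlap in DMSO, and taking the longest transcript in place of all exons kept that order, with 167 for SLFN12 and 98.4 for SLFN11. In the treated cells the order of the 4 was the same, at 119 ± 11.1, 74.8 ± 1.17, 23.7 ± 1.24 and 1.09 ± 1.14 normalized counts per kb (SD, n = 3 each). Rh30 cells thus expressed SLFN11, SLFN12 and, at a lower level, SLFN5, and held few reads of SLFN13.

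**Figure D1:**
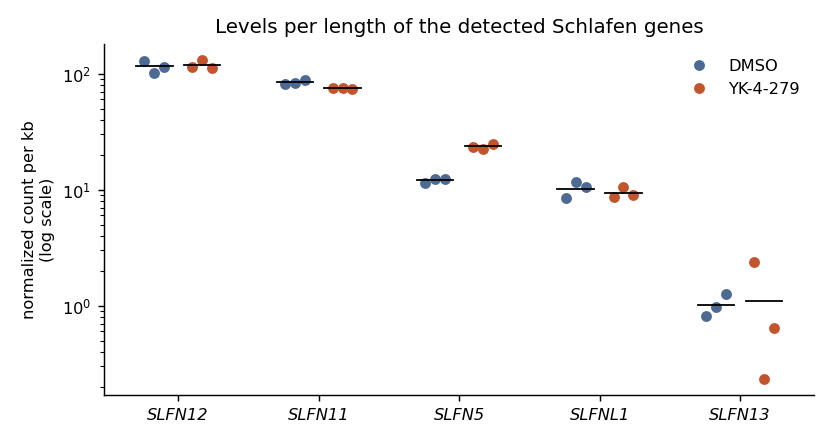
Normalized counts per kb of exons (log scale) of the 5 Schlafen genes with reads in every library, in the 3 DMSO and 3 YK-4-279 libraries, with bars at the group means. SLFN12 and SLFN11 sit near 100, SLFN5 moves from 12.04 to 23.7, and SLFN13 sits near 1 with a wide spread in the treated libraries.

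SLFN5 is the long Schlafen protein best known as an interferon-induced repressor of transcription. In order of replicate number, SLFN5 had 121, 132 and 133 normalized counts with DMSO and 249, 241 and 267 with YK-4-279. Every treated library lay above every DMSO library, and the lowest treated value exceeded the highest DMSO value by more than the spread within either group. The means were 129 ± 6.53 and 253 ± 13.2 (SD, n = 3 each), a log2 difference of 0.97 (standard error 0.11), or 1.96-fold. These values rested on 387 reads in DMSO and 780 in treated cells. The exact Poisson 95% intervals, which cover counting error only, had their highest upper bound in DMSO at 156.4 and their lowest lower bound in treated cells at 210.5. The coefficient of variation between libraries was 5.08% in DMSO and 5.24% in treated cells. In a bulk sample, more cells expressing a gene and more RNA per cell cannot be told apart.

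By the size of its rise SLFN5 was number 90 of the 13930 genes tested, and number 5 of the 10699 of these with a mean of at least 100 normalized counts. The next gene above it in the shorter order was NR1D1, with a log2 fold change of 0.97, and the next below was BMF, with 0.96. Leaving out each library in turn gave log2 fold changes of SLFN5 between 0.93 and 1.00, and all 14 alternative settings gave values between 0.92 and 1.00. Without DMSO replicate 1, the library that stood apart, the value was 0.93.

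**Figure D2:**
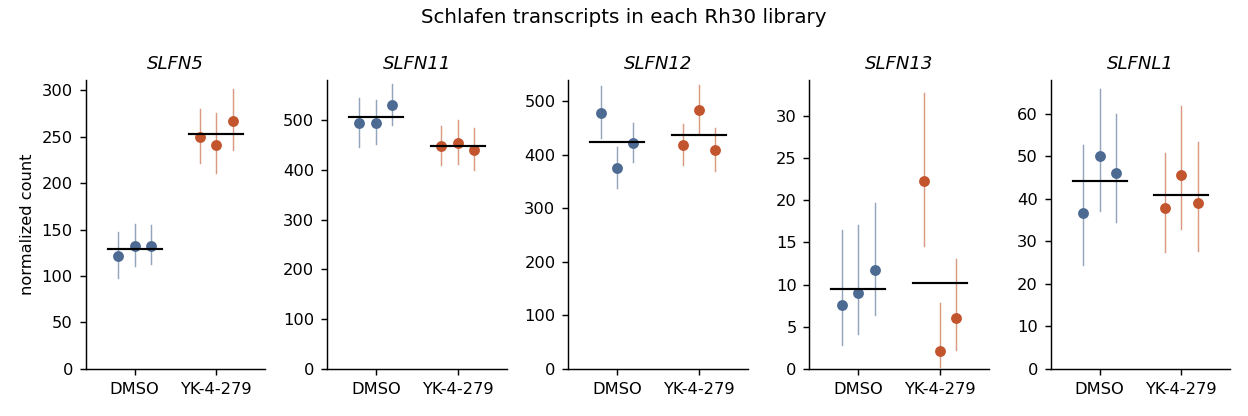
Normalized counts of SLFN5, SLFN11, SLFN12, SLFN13 and SLFNL1 in each of the 3 DMSO and 3 YK-4-279 libraries (points), with exact Poisson 95% intervals as thin vertical lines and group means as horizontal bars, each gene on its own axis from 0. The treated libraries of SLFN5 sit at 241 to 267 against 121 to 133 in DMSO, those of SLFN11 sit slightly under DMSO, and the groups overlap for the others.

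SLFN11, the replication fork factor, was slightly lower in treated cells. Its normalized counts were 493, 495 and 529 in the DMSO libraries and 447, 454 and 440.2 in the treated libraries. The groups did not overlap, but the gap of the nearest libraries was narrow. The means were 506 ± 20.5 and 447 ± 6.999 (SD, n = 3 each), a log2 difference of -0.18 (standard error 0.08), or 0.885-fold. The Poisson 95% intervals of some pairs of libraries overlapped between the groups, such as 445 to 544 in DMSO replicate 1 and 412 to 500 in YK-4-279 replicate 2. Others did not, that of DMSO replicate 3 starting at 488.9 and those of YK-4-279 replicates 1 and 3 ending at 487.4 and 483.3. The log2 value lay between -0.19 and -0.14 under the 14 alternatives.

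SLFN12, the short member that forms a complex with phosphodiesterase PDE3A and then cuts transfer RNA, had normalized counts of 478, 375 and 422 in DMSO and 418, 484 and 408 in treated cells. The groups overlapped, and the lowest and second highest libraries were both DMSO. The means were 425 ± 51.6 and 437 ± 40.9 (SD, n = 3 each), a log2 difference of 0.04 (standard error 0.10). The sign was not stable, since the value was -0.04 without DMSO replicate 2, -0.03 without YK-4-279 replicate 2 and 0.13 without DMSO replicate 1.

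SLFN13, an endonuclease of transfer and ribosomal RNA, had a mean of 9.78 normalized counts over the 6 libraries, under the minimum of 10, and was not fitted. It had 7.57, 8.99 and 11.7 normalized counts in DMSO and 22.3, 2.17 and 6.003 in treated cells. A single library, YK-4-279 replicate 1 with 26 reads, lay above all others, and YK-4-279 replicate 2 held only 2 reads. The sums were 29 reads in DMSO and 34 in treated cells, and a difference was not detectable at this depth.

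Of the 3 members tested, 1 had every treated library above every DMSO library (SLFN5) and 1 had every treated library below (SLFN11). Over all 13930 genes tested these shares were 10.9% and 15.1%. Nothing is read from the members' counts, since the same comparison chose them. SLFN11 and SLFN13 are similar in sequence, with 367 stretches of 150 bases in common between their canonical transcripts, 7.35% of those of SLFN11 and 4.45% of those of SLFN13. Reads from these stretches could be split or lost between the pair, which touches the few reads of SLFN13 most. SLFN5 had 0 stretches of 50, 100 or 150 bases in common with transcripts of other genes within 500 kb of the cluster. Transcripts elsewhere in the annotation were not searched, so reads shared with them were not tested.

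Of the rest of the family, SLFN12L and SLFN14 had few or no reads. SLFN12L was listed at 0 reads in all 6 libraries, with 3 reads in each taken as the limit that a count of 0 allows. It overlaps 7 annotated genes, 3 of them on the other strand, and how reads in such overlaps were counted is not given in the sources used here. SLFN14, which cuts RNA on ribosomes of blood cell precursors, had 0 reads in 3 libraries and 1 read in each of the others. SLFNL1, a more distant Schlafen-like gene on chromosome 1, had 36.6, 49.96 and 45.9 normalized counts in DMSO and 37.7, 45.6 and 39.0 in treated cells, a log2 difference of -0.10 (standard error 0.21). Per kb of exons SLFNL1 had 10.2 ± 1.59 in DMSO, overlapping SLFN5 at 12.04 ± 0.612. In treated cells, where SLFN5 had 22.6 to 25.03 and SLFNL1 8.73 to 10.6 normalized counts per kb, the libraries of the pair no longer overlapped. SLFNL1 overlaps its antisense gene SLFNL1-AS1, which had 88.7 ± 19.0 and 84.5 ± 7.002 normalized counts (SD, n = 3 each). The library preparation kept strand, but which strand was counted is not given in the sources used here.

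Ratios within a library do not depend on its scaling factor. SLFN5 had 0.246, 0.267 and 0.251 times the normalized counts of SLFN11 in DMSO and 0.557, 0.531 and 0.607 times in treated cells, means of 0.254 ± 0.0110 and 0.565 ± 0.0384 (SD, n = 3 each). Summed over the 4 genes, the family had 1068 ± 50.4 normalized counts in DMSO and 1147 ± 30.9 in treated cells. The share of SLFN5 in this sum was 12.1% ± 1.02 in DMSO and 22.1% ± 1.701 in treated cells, that of SLFN11 was 47.4% ± 2.22 and 39.0% ± 0.486, and that of SLFN12 was 39.7% ± 3.35 and 38.0% ± 2.52. Like the fold changes, these shares come from the comparison that chose the genes.

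The neighbourhood of the cluster was examined from 500 kb before SLFN5 to 500 kb after SLFN14. Besides the family, 26 of the genes in this stretch were in the matrix and 11 were tested. At an adjusted p under 0.05 in limma, 0 of these 11 passed, against 3.41% of all genes tested, and 1 was lower at an unadjusted p under 0.05, against 10.98%. Of the 11, 6 had a log2 fold change above 0 and 5 below, with a median of 0.05 against -0.01 over all genes, and this median lay between -0.03 and 0.21 under the alternatives. UNC45B, a myosin chaperone of muscle, was named as the nearest tested gene before SLFN5. It had 22.0 ± 5.96 and 31.6 ± 2.44 normalized counts (SD, n = 3 each), with a log2 difference of 0.54 (limma adjusted p = 0.308). In DMSO replicates 1, 2 and 3, UNC45B had 15.13, 24.98 and 25.88 normalized counts. DMSO replicate 1 lay farthest from the treated libraries, so this difference rests partly on it. AP2B1, an adaptor of clathrin coats with the highest mean in the stretch, had -0.09 (standard error 0.06, limma adjusted p = 0.466). The largest difference downward was that of RAD51D, a homologous recombination gene singled out after its values were seen, at -0.33 (limma adjusted p = 0.215). Without DMSO replicate 1, 1 of the 11 passed as lower, against 8.45% of all genes in that fit.

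**Figure D3:**
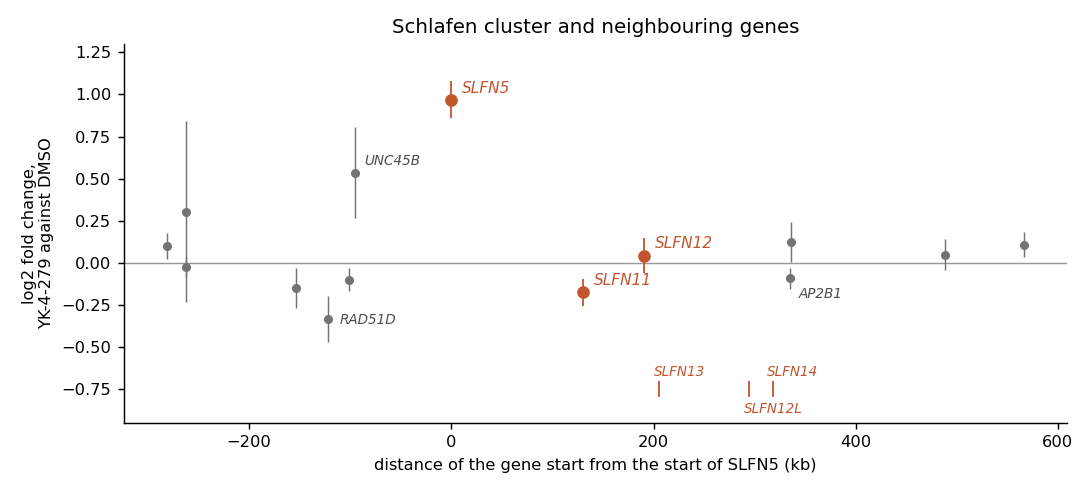
Log2 fold change, YK-4-279 against DMSO, of the tested genes around the Schlafen cluster, plotted against their distance in kb from the start of SLFN5, with standard errors as bars and with ticks at the foot for the 3 genes of the cluster that were not tested. SLFN5 sits at 0.97, SLFN11 at -0.18 and SLFN12 at 0.04, and the 11 neighbours (grey, 3 of them labelled) lie between -0.33 and 0.54.

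The 4 genes whose profile was nearest to that of SLFN5 were sought among 10698 others with a mean of at least 100, by the root mean square difference of log2 values centred on the DMSO mean over the 6 libraries. They were BMF, at a difference of 0.0783, EGR1 at 0.0938, NR1D1 at 0.108 and ID2 at 0.120, against a median of 0.711 over all genes compared. BMF, which encodes a pro-apoptotic protein of the BCL2 family, had 378 ± 33.4 normalized counts in DMSO and 737 ± 15.9 in treated cells (SD, n = 3 each). EGR1, an immediate early transcription factor, had 279.5 ± 19.3 and 598 ± 37.8, and NR1D1, the circadian repressor REV-ERB alpha, had 117 ± 11.9 and 231 ± 8.48. ID2, an inhibitor of basic helix-loop-helix factors, had 219 ± 11.8 and 421 ± 20.7. These genes were picked for their likeness, which is a description of these 6 libraries.

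**Figure D4:**
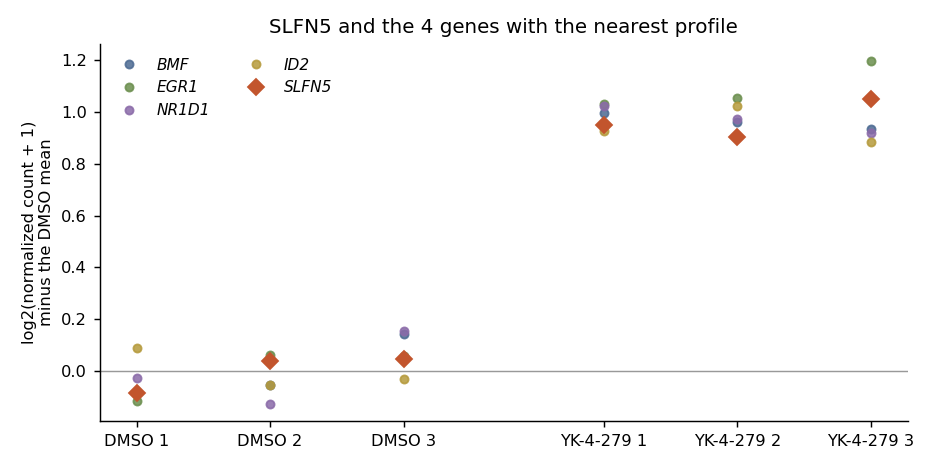
Log2 values centred on the DMSO mean of SLFN5 and of the 4 genes nearest to it, in the 3 DMSO and 3 YK-4-279 libraries, 1 point per gene and library. The points lie close to 0 in DMSO and close to 1 in treated cells.

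Genes of the interferon pathway, through which Schlafen genes are induced, lay on both sides of 0. Of 24 genes for interferon ligands, receptors and signalling, 21 were tested, 8 above and 13 below 0, with a median log2 fold change of -0.06. In either direction 0 passed the limma threshold, against 3.41% of all genes. At an unadjusted p under 0.05, 3 were higher and 2 lower, where 7.69% of all genes were higher and 10.98% lower. Of 58 interferon-stimulated genes, 40 were tested, 19 above and 21 below 0. Their median was -0.01 and changed sign under 5 of the 14 alternatives, with values from -0.07 to 0.04. Among them 0 passed as higher, against 1.26% of all genes, and 1 as lower, against 2.15%. At an unadjusted p under 0.05, 3 were higher and 5 lower. Every treated library lay above every DMSO library for 3 of the 40, against 10.9% of all genes, and below for 7, against 15.1%. The gene that passed was EIF2AK2, the double-stranded RNA-activated kinase PKR, which fell from 2455 ± 137 to 2007 ± 22.6 (log2 fold change -0.29, standard error 0.06, limma adjusted p = 0.0232). ADAR, the RNA editing enzyme with the highest mean of the list, had -0.06 (limma adjusted p = 0.596). The largest value upward was that of IFI27, a classical target of interferon alpha singled out after its values were seen, at 6.80 ± 0.876 and 19.9 ± 6.76 normalized counts (limma adjusted p = 0.0644). Without DMSO replicate 1, 3 interferon-stimulated genes passed as higher and 1 as lower, and 1 gene of the receptors and signalling list passed as higher, against 4.63% and 8.45% of all genes in that fit, with medians of 0.03 and -0.01. Without DMSO replicate 2, 1 interferon-stimulated gene passed as higher and 1 as lower, and 2 signalling genes as higher, against 1.93% and 2.99% of all genes.

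A list of 16 genes held proteins that SLFN11 acts with at replication forks and targets of the drugs it sensitises to. All 16 were tested, 1 above and 15 below 0, with a median log2 fold change of -0.17, against 48.0% above 0 and a median of -0.01 over all genes. Of these 3 passed as lower, against 2.15% of all genes, and 0 as higher, against 1.26%. TOP2A, the topoisomerase targeted by etoposide, had the largest fall, with a mean of 22136 ± 2256 normalized counts in DMSO and of 16121 ± 684 in treated cells (log2 fold change -0.45, standard error 0.07, limma adjusted p = 0.00626). WEE1, a checkpoint kinase, fell by 0.25 on the log2 scale (standard error 0.06, limma adjusted p = 0.0367), and MCM3, a subunit of the replicative helicase, by 0.23 (standard error 0.05, limma adjusted p = 0.0363). PARP1, the target of PARP inhibitors and the gene with the highest mean, had 22932 ± 516 and 20379 ± 781, a log2 fold change of -0.17 (limma adjusted p = 0.104). TOP1, the target of camptothecins and the sole gene above 0, had 0.11 (limma adjusted p = 0.332). Without DMSO replicate 1, the median was -0.13, and 8 genes passed as lower and 1 as higher, where 8.45% and 4.63% of all genes did. Without YK-4-279 replicate 1 or 2, 0 passed as lower, against 0.0288% and 0.0646% of all genes. Without DMSO replicate 3 or YK-4-279 replicate 3, 1 passed as lower, against 1.02% and 0.13%. Without DMSO replicate 2, 4 did, against 2.99%.

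The 3 partners of SLFN12 were tested and 0 passed, against 3.41% of all genes, with 1 lower at an unadjusted p under 0.05, against 10.98%. PDE3A, the phosphodiesterase that binds SLFN12 in the presence of certain small molecules, had 282 ± 53.9 and 279 ± 20.6 normalized counts (SD, n = 3 each). PDE3B, its paralogue, had a log2 difference of -0.20 (standard error 0.07, limma adjusted p = 0.155).

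Of 21 ETS factors, 16 were tested, 7 above and 9 below 0, with a median of -0.09, and 1 passed as lower, against 2.15% of all genes. ETS1, the factor named by the study and the one with the highest mean, had 3359 and 3370 normalized counts on average, a log2 difference of 0.01 (standard error 0.06, limma adjusted p = 0.974). FLI1 had a log2 fold change of 0.09 (limma adjusted p = 0.814). ELK3, a serum response cofactor, fell by 0.29 (standard error 0.07, limma adjusted p = 0.0487). When DMSO replicate 1 was left out, 3 ETS factors passed as higher and 3 as lower, against 4.63% and 8.45% of all genes, and the median was -0.04.

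Of 11 chromatin genes of the kind described to silence SLFN11, all 11 were tested, 1 above and 10 below 0, with a median of -0.08. Of these 3 passed as lower, against 2.15% of all genes, and 0 as higher, against 1.26%. UHRF1, which guides maintenance DNA methylation, had 11893 ± 1334 normalized counts in DMSO and 9397 ± 420.1 in treated cells (log2 fold change -0.33, standard error 0.08, limma adjusted p = 0.0298). DNMT1, the maintenance methyltransferase, fell by 0.24 (standard error 0.05, limma adjusted p = 0.0262), and EZH2, the Polycomb methyltransferase, fell by 0.25 (standard error 0.06, limma adjusted p = 0.0459). When DMSO replicate 1 was left out, 4 of the 11 passed as lower, against 8.45% of all genes, and the median was -0.12. The calls of EIF2AK2, WEE1, MCM3, ELK3, UHRF1, DNMT1 and EZH2 were each lost without any 1 of the 3 treated libraries and without DMSO replicate 3, and that of MCM3 also without DMSO replicate 2. TOP2A lost its call without YK-4-279 replicate 1 and without YK-4-279 replicate 2.

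**Figure D5:**
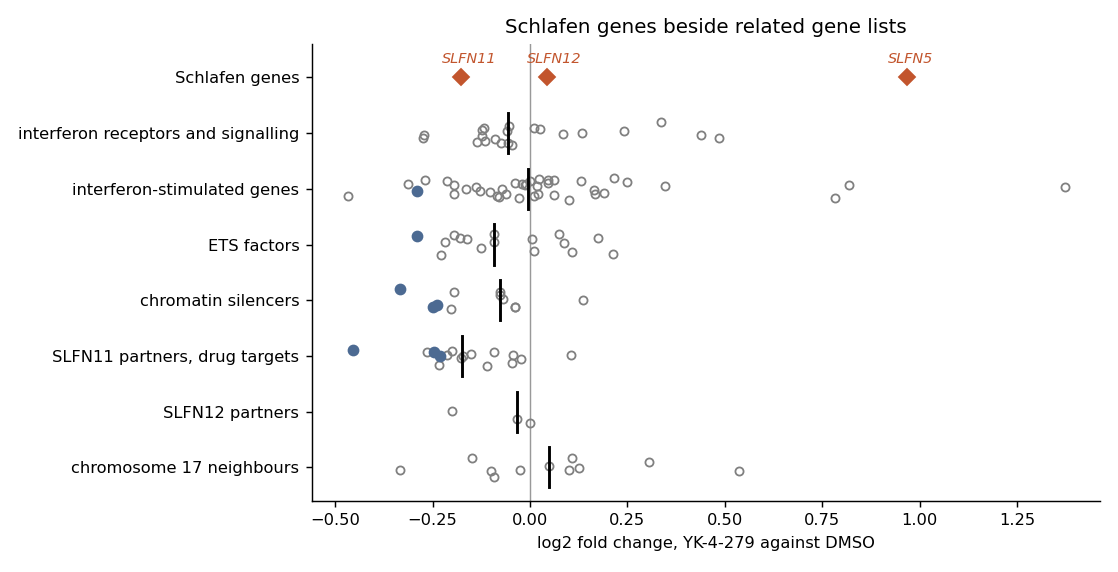
Log2 fold change, YK-4-279 against DMSO, of the tested genes of each list, 1 point per gene, with list medians as black bars, filled points for genes with a limma adjusted p under 0.05, and the 3 fitted members of the Schlafen group as diamonds in the top row. Medians lie at -0.06 for interferon signalling, -0.01 for interferon-stimulated genes and -0.17 for SLFN11 partners, and the highest single value is that of IFI27 at 1.37.

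The labelled cell type was checked against its markers. All 6 rhabdomyosarcoma markers were tested and none passed, against 3.41% of all genes. MYOD1, the myogenic factor with the highest mean, had 37118 ± 2368 and 36868 ± 1156 normalized counts (SD, n = 3 each). At an unadjusted p under 0.05, 2 of the 6 were higher and 1 lower, against 7.69% and 10.98% of all genes. MYOG, a myogenic factor, had a log2 difference of 0.23 (limma adjusted p = 0.224), DES, the muscle intermediate filament, had 0.14 (limma adjusted p = 0.255) and FOXO1 had -0.25 (limma adjusted p = 0.128), each with no overlap between the groups. In DMSO replicates 1, 2 and 3, MYOG had 11114.7, 15556 and 14758.5 normalized counts. DES had 6188, 7126 and 6751, and FOXO1 had 2336, 1849 and 1887. DMSO replicate 1 lay farthest from the treated libraries for each gene, so these differences rest partly on it. Without DMSO replicate 1, 2 of the 6 passed as lower, against 8.45% of all genes. Without DMSO replicate 2, 1 passed as higher and 1 as lower, against 1.93% and 2.99%. Blood cells are rich in Schlafen transcripts, and their markers were checked as well. Of 9 lymphoid markers 0 reached a mean of 10, PTPRC (CD45) held at most 1 read in a library, and CD2, CD3D and MS4A1 were at 0 in all 6 libraries. Their summed level was 5.84 to 17.7 normalized counts in DMSO and 22.0 to 32.6 in treated cells, and that of 6 myeloid markers was 8.83 to 23.0 and 27.2 to 39.4, with CD68 and FCGR3A at 0 throughout and CD14 the only one tested (limma adjusted p = 0.14). CD79A had 1.26, 1.9985 and 0.835 normalized counts in DMSO and 7.71, 16.3 and 5.003 in treated cells, and ITGAM had 2.52, 0.999 and 3.34 in DMSO and 5.14, 6.52 and 12.01 in treated cells. CD14 had 3.78, 11.99 and 8.35 in DMSO and 23.1, 17.4 and 15.01 in treated cells. These 3 genes had every treated library above every DMSO library and were named after their values were seen, as were MYOG, DES and FOXO1. Both sums thus moved with the treatment, and their part in the difference of SLFN5 was not tested. The summed level of 6 endothelial and epithelial markers was 168 to 177 in DMSO and 168 to 221 in treated cells. Of these 5 were tested and none passed, against 3.41% of all genes.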

How the data were processed

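After trimming of paired-end reads with BBDuk, the authors used STAR 2.7.9a for alignment to hg38 and for counts per gene, and DESeq2 for normalization and testing (version 1.44.0 in the submitters' processing notes). The annotation release is not given in the sources used here. The deposited values are a signal per gene, reads divided by 1 factor per library, and every value was a whole multiple (within 0.001 of a read) of the smallest value above 0. The reads so recovered gave depth and exact Poisson intervals only. The matrix had 35269 rows, of which 1 without a gene name, with at most 6 reads per library, was left out.

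Here log2(normalized count + 1) was fitted with limma 3.58.1 in R 4.3.3 (lmFit, eBayes with trend) wherever the mean of the 6 libraries reached 10 (13930 genes), as 3 against 3, two-sided, with Benjamini-Hochberg adjustment and a threshold of 0.05. Fold changes of low genes are understated on this scale. The code was tested on simulated data. Gene positions and lengths came from GENCODE 44.

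The members and the gene lists were chosen with earlier results of these data known. The genes named were the Schlafen genes, in each list and among the neighbours the tested gene with the highest mean and up to 3 called genes with the largest change, the partners of SLFN12, and the 5 profiles nearest to SLFN5. Some genes that this rule names are not reported here. FLI1 and TOP1 were named besides for their known roles. Alternatives were pseudocounts of 0.5 and 10, no filter or a mean of at least 100, TMM scaling, quantile normalization, a replicate block, no trend in eBayes, each library left out, and the longest transcript as length.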

Additional observations from a re-analysis of the deposited data

How the results depend on the processing

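The log2 fold changes of SLFN5 and SLFN11 kept their sign under all 14 alternatives, from 0.92 to 1.00 and from -0.19 to -0.14. That of SLFN12 changed sign under 2, and the difference of SLFN13, which had values under 9 alternatives, lay between -1.12 and 0.31 with 1 change of sign. With the longest transcript as length, the DMSO level per kb of SLFN11 was 98.4 in place of 84.5 and that of SLFN12 was 167 in place of 116.

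The number of genes passing the threshold, 475 with 176 higher and 299 lower, depended on the fit and on single libraries. Quantile normalization gave 277, of which 145 were lower, and 47.7% of the calls were higher against 37.1%. Without the trend in eBayes it was 33, with 30 higher and 3 lower, or 90.9% higher. Leaving out each library in turn gave between 19 and 1827 genes, between 15 and 647 higher and between 4 and 1180 lower. It was 1827 without DMSO replicate 1, 686 without DMSO replicate 2, 242 without DMSO replicate 3, and 19, 25 or 46 without YK-4-279 replicate 1, 2 or 3. The cause was not tested.

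Libraries with the same replicate number did not vary together, their deviations from the group means being correlated at -0.098, -0.027 and -0.027. The labels do not say whether they were paired. With the number as a replicate block, 180 genes passed, 79 higher and 101 lower. The calls of EIF2AK2, WEE1, MCM3, ELK3, UHRF1, DNMT1 and EZH2 were lost under the block, under quantile normalization and without the trend in eBayes, and that of TOP2A without the trend. The median of the interferon-stimulated genes was -0.07 under quantile normalization and that of the chromosome 17 neighbours was -0.03 with a mean of at least 100 and -0.02 without DMSO replicate 1. No setting moved the median of all genes by over 0.1. The planned edgeR and DESeq2 fits were not run, because a check of the recovered reads did not accept those of DMSO replicate 2 and YK-4-279 replicate 3. There 1 read is worth 0.9992 and 1.0005, close to 1, although 100% of their values were whole multiples of it. With 3 libraries of 1 cell line per group, and 29 and 34 reads in all for SLFN13, small differences were not detectable.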
